A study of Arabidopsis thaliana with 9 samples.

Results

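Cytochromes P450 are haem-containing monooxygenases, and in plants most of them sit on the endoplasmic reticulum and draw electrons from a P450 reductase. In the P450 naming scheme the number gives the family and the letter after it the subfamily, and genes of 1 subfamily often lie side by side on a chromosome as tandem copies. P450s make and break down plant hormones, brassinosteroids among them, and build lignin monomers, glucosinolates and the phytoalexin camalexin. The CYP71 family belongs to the branch of plant P450s that serves mostly specialised metabolism, and for most CYP71B genes no role is stated here.

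The P450 genes described here are those whose symbol in the platform's gene annotation starts with CYP, a P450 family number and a letter, and whose probe set is paired with that gene alone. The rule found 23 genes, each with 1 probe set, of 13355 loci with such a probe set. Of the 23 genes, 19 are of the CYP71B subfamily, and the other 4 are CYP51G2, CYP78A9, CYP79A2 and CYP84A4. The set is therefore mainly a sample of CYP71B genes and not of the whole P450 family, and the P450s of brassinosteroid, gibberellin and abscisic acid metabolism were not analysed here. The rule left out the probe set shared by CYP71B19 and CYP71B20, the one that CYP79C2 shares with a neighbouring locus, and CYP718, whose symbol has no letter. It also left out CYP71 and CYP59, which are names of cyclophilin genes.

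RNA came from whole seedlings of the Columbia background kept for 108 h in darkness on solid medium with 1% sucrose, and each genotype was measured on 3 single-colour Affymetrix arrays. AtGATA2ox is a transgenic overexpression line for AtGATA2, which encodes a transcription factor of the GATA class, bri1-116 carries a null allele of the brassinosteroid receptor kinase BRI1 and was used as homozygotes picked one by one out of a segregating population, and Col is the wild type. The labels name neither the promoter of the transgene nor how many transformants the AtGATA2ox line stands for, and they do not say whether the 3 arrays of a genotype hold separate cultures, so the p-values cover no more than the spread between these samples, which may be technical. The AtGATA2ox samples are recorded apart from the other 6, the labels do not say whether all arrays were run together, and a run effect cannot be told apart from the effect of this genotype. The design sets genes that respond to AtGATA2 beside genes that respond to the loss of BRI1.

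Values are linear intensities as deposited, with the same trimmed mean on every array, and are given in array units. The median intensity of an array was 111 ± 10.7 in AtGATA2ox, 127 ± 6.86 in bri1-116 and 140.0 ± 6.60 in Col (SD, n = 3 each). The actin probe set at the 3′ end over the one at the 5′ end, a measure of how short the labelled RNA is, gave 3.66 to 5.45 in AtGATA2ox, 2.86 to 4.88 in bri1-116 and 1.81 to 2.03 in Col, so this measure moved with the genotype, and its part in the results below was not tested. 25S ribosomal RNA gave 8762.9 on replicate 1 and 3533.8 on replicate 2 of bri1-116, and 107.7 to 502.8 on the other 7 arrays. PORB, a protochlorophyllide reductase gene active in etiolated shoots, stood at 8013.6 to 11552.8 in AtGATA2ox, 14200.9 to 16482.6 in bri1-116 and 5493.4 to 7722.6 in Col. Of the other tissue markers, none of 12 listed seed genes had a named probe set, the root hair expansin gene EXPA7 read 15.3 to 123.9 over all 9 arrays, and EXPA18 read 3.7 to 29.6 in AtGATA2ox, 26.8 to 66 in bri1-116 and 67.6 to 102.9 in Col. AMS, a gene of the anther tapetum, read 1.9 to 89.2 over the 9 arrays. In whole seedlings fewer cells of a type and less RNA per cell cannot be told apart.

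Most of the P450 probe sets were dim. Probe sets for Bacillus genes, which have no target in plants, had genotype means of up to 61.8 and single values of up to 84.1. For 7 P450 genes (CYP71B5, CYP71B6, CYP71B23, CYP71B28, CYP71B29, CYP71B34 and CYP84A4) the mean of every genotype lay above 61.8, and the same 7 were the only ones with a genotype mean that reached 124.5, the median intensity over all probe sets and arrays. For 11 genes no genotype mean passed 61.8, and for 7 genes no array passed 84.1. Intensities in that range may be background, and a fold change from them is not exact.

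The 23 genes sort by position as well. By the order of loci in the RefSeq annotation, 17 of the 19 CYP71B genes lie in 3 runs. The longest run, from AT3G26150 (CYP71B16) to AT3G26330 (CYP71B37) on chromosome 3, holds 18 P450 genes, of which 11 are measured. A run on chromosome 1 from AT1G13070 to AT1G13100 holds 4 P450 genes, of which CYP71B27, CYP71B28 and CYP71B29 are measured. CYP71B5, CYP71B30P and CYP71B31 form the third run, from AT3G53280 to AT3G53300. RefSeq lists CYP71B27 and CYP51G2 as transcribed pseudogenes, while CYP71B30P, whose symbol ends in the P used for pseudogenes, is listed there as protein coding. Tandem copies can be similar in sequence, and how far these probe sets read a neighbour's transcript was not tested.

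With AtGATA2 overexpressed, several CYP71B genes were lower than in wild type. Against Col, 6 of the 23 genes were lower in AtGATA2ox and 1 was higher, with 16 not passing the test (limma, adjusted p under 0.05). All 7 called genes are CYP71B genes in the 3 runs, but 19 of the 23 genes are CYP71B genes and 17 of the 23 lie in the runs. Over all 22746 probe sets tested, 28.5% were called in this comparison, 18.8% lower and 9.72% higher, so a count of 7 of 23 (30.4%) lies near the share over the whole array. The arrays of both genotypes did not overlap for 10 of the 23 genes, against 41.3% of all probe sets, and for 7 of these AtGATA2ox was the lower one, against 25.7%. The median log2 fold change was 0.26 over the 23 genes and -0.17 over all probe sets, with 14 genes above 0 and 9 below. Dim genes carry this positive median. Without the dimmest 40% of probe sets it was -0.90 over the 7 P450 genes kept, and -0.28 over all probe sets kept. The Bacillus controls had a median of means of 17.4 in AtGATA2ox and 11.2 in Col, and the part of this difference in the dim genes was not tested.

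CYP71B5 was the most precisely measured of the genes that fell. It read 144.9, 221.8 and 189.3 in AtGATA2ox, 424.1, 499.1 and 362.7 in bri1-116, and 361.8, 412 and 515.2 in Col. All 3 AtGATA2ox arrays lay below all 6 others, while the bri1-116 and Col arrays spanned nearly the same range. The fall against Col was 2.32-fold (log2 fold change -1.21 ± 0.23 SE, adjusted p = 0.0015), and against bri1-116 it was -1.21 ± 0.23 (adjusted p = 0.0016). CYP71B5 remained called lower than Col under each of 17 alternatives (-2.26 to -0.82). Those that change only the test or the probe sets kept, or leave out bri1-116 arrays alone, keep the fold change at -1.21 and so bear only on the call.

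CYP71B34 read 167.3, 80.3 and 142.2 in AtGATA2ox, 179.8, 284.7 and 202 in bri1-116, and 300.5, 267.5 and 260.1 in Col. The AtGATA2ox arrays were below both other genotypes with no overlap, and bri1-116 overlapped Col. CYP71B34 fell 2.21-fold against Col (-1.14 ± 0.31, adjusted p = 0.014), and its difference from bri1-116 did not pass (-0.81 ± 0.31, adjusted p = 0.076).

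The neighbours CYP71B28 and CYP71B29 on chromosome 1 also fell. CYP71B28 read 127.6, 81 and 97.6 in AtGATA2ox, 190.3, 208.7 and 197.2 in bri1-116, and 193.7, 189.5 and 182.3 in Col, so AtGATA2ox was low and the 6 other arrays lay close together. The fold change against Col was -0.90 ± 0.29 (adjusted p = 0.03), and against bri1-116 -0.98 ± 0.29 (adjusted p = 0.021). CYP71B29 read 40.3, 121.1 and 210.4 in AtGATA2ox, 153.3, 141.5 and 163.8 in bri1-116, and 278.2, 379.4 and 269.1 in Col. Here all Col arrays were above all arrays of both other genotypes, but the AtGATA2ox arrays were spread widely around those of bri1-116. CYP71B29 fell 3-fold in AtGATA2ox (-1.58 ± 0.47, adjusted p = 0.021), and its bri1-116 value of -0.99 ± 0.47 did not pass (adjusted p = 0.2). Without AtGATA2ox replicate 1, the lowest array, CYP71B29 still fell, with a smaller log2 fold change against Col of -0.93 (adjusted p = 0.0386), and over all 9 arrays left out in turn the value ran from -2.11 to -0.93.

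Of these 4 genes, CYP71B28 and CYP71B29 reached the median of 124.5 only in bri1-116 and Col. In AtGATA2ox the mean of CYP71B28 was 102 ± 23.6 and that of CYP71B29 124 ± 85.1 (SD, n = 3 each), and 1 AtGATA2ox array of each of CYP71B28, CYP71B29 and CYP71B34 lay under 84.1, the highest Bacillus value. With quantile normalisation CYP71B28, CYP71B29 and CYP71B34 lost their calls (-0.55, -1.24 and -0.73), and so they did with centring on the median (-0.56, -1.24 and -0.80). Leaving out 1 array ended the call of CYP71B28 without AtGATA2ox replicate 2 (adjusted p = 0.0635) and without Col replicate 1, 2 or 3 (0.0962, 0.0874 and 0.0784), of CYP71B29 without Col replicate 2 (0.0896) and of CYP71B34 without Col replicate 1 (0.0588). With bri1-116 replicates 1 and 2 both left out, CYP71B28 (adjusted p = 0.0652) and CYP71B29 (0.0521) did not pass, and without the intensity trend in the fit CYP71B29 did not (0.0702).

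The other 3 calls came from dim probe sets. CYP71B37 read 45.3, 4.7 and 8.8 in AtGATA2ox, 49.2, 54.6 and 42.1 in bri1-116, and 99.5, 130.9 and 80.3 in Col. Col stood above both other genotypes, and the AtGATA2ox values lie in the range of the Bacillus controls. The fold change against Col was -2.90 ± 0.74 (adjusted p = 0.01), and it passed under each of the 16 alternatives that gave a value (-3.95 to -1.90). CYP71B35 read 6, 5.8 and 3.9 in AtGATA2ox, 93.9, 31.2 and 58.2 in bri1-116, and 34.4, 72.4 and 13.5 in Col. AtGATA2ox lay below every other array. All 3 AtGATA2ox arrays, all 3 Col arrays and 2 of the 3 bri1-116 arrays were under 84.1. No genotype mean passed 61.8, the highest Bacillus mean, which is that of AtGATA2ox. The CYP71B35 means of bri1-116 (61.1) and Col (40.1) did pass the highest Bacillus mean of their own genotype, 39.3 and 37.2. In AtGATA2ox the CYP71B35 mean was 5.23. CYP71B35 fell by 2.45 ± 0.78 on the log2 scale against Col (adjusted p = 0.032), and it fell by 3.20 ± 0.78 against bri1-116 (adjusted p = 0.0077). CYP71B21 went the other way, at 121.3, 39.3 and 24.4 in AtGATA2ox, 3.8, 3.6 and 7.2 in bri1-116, and 19.5, 5.7 and 1.2 in Col. Its AtGATA2ox arrays lay above the 6 others, and only AtGATA2ox replicate 1 exceeded 84.1. The rise was 2.90 ± 0.94 against Col (adjusted p = 0.033) and 3.14 ± 0.94 against bri1-116 (adjusted p = 0.023).

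CYP71B35 lost its call against Col with centring on the median (adjusted p = 0.058), with log2(value + 16) (-1.26, adjusted p = 0.057) and without AtGATA2ox replicate 3, Col replicate 1 or Col replicate 2 (0.0727, 0.0885 and 0.147). With log2(value + 16) the log2 fold change of CYP71B35 against bri1-116 was -1.78, and that of CYP71B21 was 1.51 against Col and 1.70 against bri1-116, all still called. CYP71B21 lost its call against Col when arrays were scaled on the hybridisation controls (1.85, adjusted p = 0.108) and without AtGATA2ox replicate 1 (2.25), AtGATA2ox replicate 2 (3.05), Col replicate 2 (2.90) or Col replicate 3 (2.09). Both also lost it with bri1-116 replicates 1 and 2 left out (adjusted p = 0.0514 for CYP71B35 and 0.0602 for CYP71B21).

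**Figure D1:**
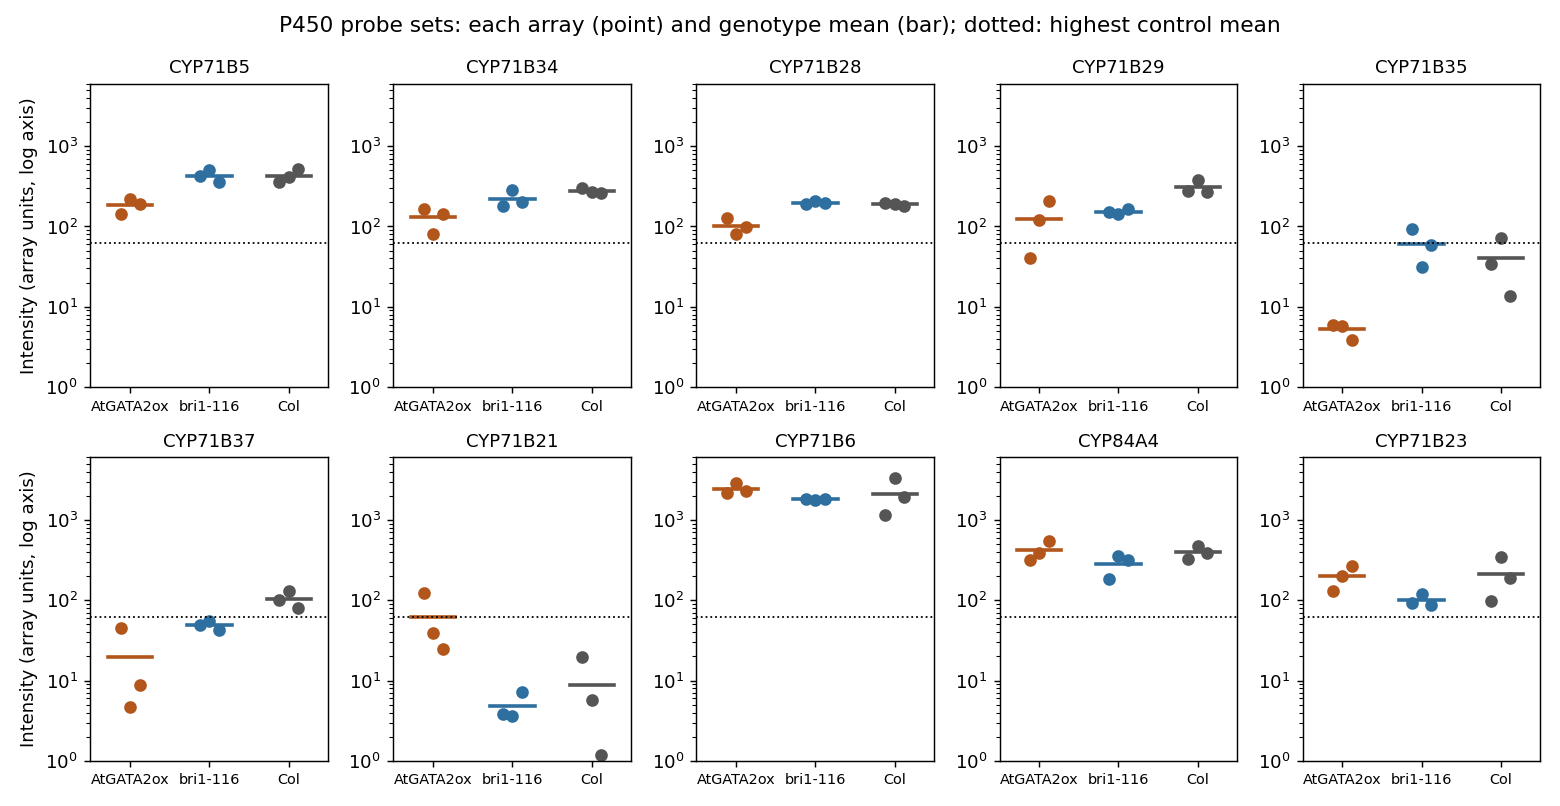
Intensity in array units on a log axis for 10 P450 genes, with 1 point per array, a bar at the mean of each genotype, and a dotted line at 61.8, the highest genotype mean of the Bacillus controls. CYP71B5, CYP71B34, CYP71B28, CYP71B29, CYP71B35 and CYP71B37 were called lower in AtGATA2ox than in Col, CYP71B21 was called higher, and CYP71B6, CYP84A4 and CYP71B23 were not called.

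The long run on chromosome 3 held calls in both directions. Its last 4 loci, CYP71B34, CYP71B35, CYP71B36 and CYP71B37, are direct neighbours. Of the run's 11 measured genes, 3 were called lower in AtGATA2ox than in Col (18.8% of all probe sets) and 1 higher (9.72%). The 3 lower calls all fell among these last 4 loci. The 4 loci were not set apart before the calls were known, so their count cannot be weighed against the 18.8%. CYP71B35 and CYP71B37 are dim, and with centring on the median only CYP71B37 kept its call. Whether the position of these genes played a part was not tested. CYP71B36, which read 42.7, 43.8 and 5.7 in AtGATA2ox, 67, 53.7 and 2 in bri1-116, and 17.4, 5.5 and 22.5 in Col, had overlapping arrays in all genotypes (0.74 ± 1.19 against Col, adjusted p = 0.7). Among the 7 measured genes before them, CYP71B21 rose and the other 6 did not pass, with log2 fold changes against Col between -0.34 (CYP71B24) and 1.77 (CYP71B25). The median over the 11 genes of the run was 0.05 in AtGATA2ox and 0.27 in bri1-116. In the third run CYP71B30P, next to CYP71B5, read 14.7, 5.2 and 5 in AtGATA2ox, 69.8, 8.3 and 25.9 in bri1-116, and 15.7, 45.6 and 36.4 in Col. The AtGATA2ox arrays lay below those of Col, all in the control range, and the difference did not pass (-1.88 ± 0.88, adjusted p = 0.13). CYP71B31 stayed at 27.6 or less on all arrays.

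None of the 6 genes outside the runs was called in AtGATA2ox, and their log2 fold changes against Col lay between 0.06 and 1.24. CYP71B6 takes part in the conversion of indole-3-acetonitrile to indole-3-carboxylic acid derivatives. It read 2130.8, 2895 and 2284.8 in AtGATA2ox, 1817, 1780.6 and 1835.6 in bri1-116, and 1151.5, 3277.8 and 1924.6 in Col. The Col arrays were spread over the whole range of the other genotypes, the bri1-116 arrays differed by little, and the AtGATA2ox value of 0.32 ± 0.28 did not pass (adjusted p = 0.45). Scaled on the hybridisation controls it was -0.73 (adjusted p = 0.0499), and without Col replicate 2 it was 0.70 (adjusted p = 0.039). CYP84A4, which acts in the synthesis of the phenylpropanoid-derived arabidopyrones, read 319.3, 391.3 and 542.9 in AtGATA2ox, 181.5, 353.2 and 317.3 in bri1-116, and 328.2, 469.2 and 390.2 in Col. All 3 genotypes overlapped, and the values were 0.06 ± 0.28 in AtGATA2ox (adjusted p = 0.91) and -0.52 ± 0.28 in bri1-116 (adjusted p = 0.28). Scaled on the hybridisation controls, CYP84A4 was called lower in AtGATA2ox than in Col (-0.99, adjusted p = 0.0187).

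The remaining 4 were dim, with an SE of 0.56 to 0.90, so smaller changes in them could have gone unseen. CYP79A2, which starts the synthesis of the phenylalanine-derived benzylglucosinolate, read 40 on AtGATA2ox replicate 2 and 2.3 to 9.3 on the other 8 arrays. CYP78A9, of a family that promotes organ and seed growth, read 12 to 92.8 in AtGATA2ox, 6.5 to 29.4 in bri1-116 and 17 to 45.8 in Col, with overlap throughout. CYP51G2, a pseudogene related to the sterol 14-demethylase gene, read 66.1 to 83.4 in AtGATA2ox, 23.5 to 95.8 in bri1-116 and 51.9 to 62.5 in Col. AtGATA2ox lay just above Col with no overlap, and the difference of 0.31 ± 0.56 did not pass (adjusted p = 0.73). CYP71B38 read 5.7 to 44.9 over the 9 arrays.

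**Figure D2:**
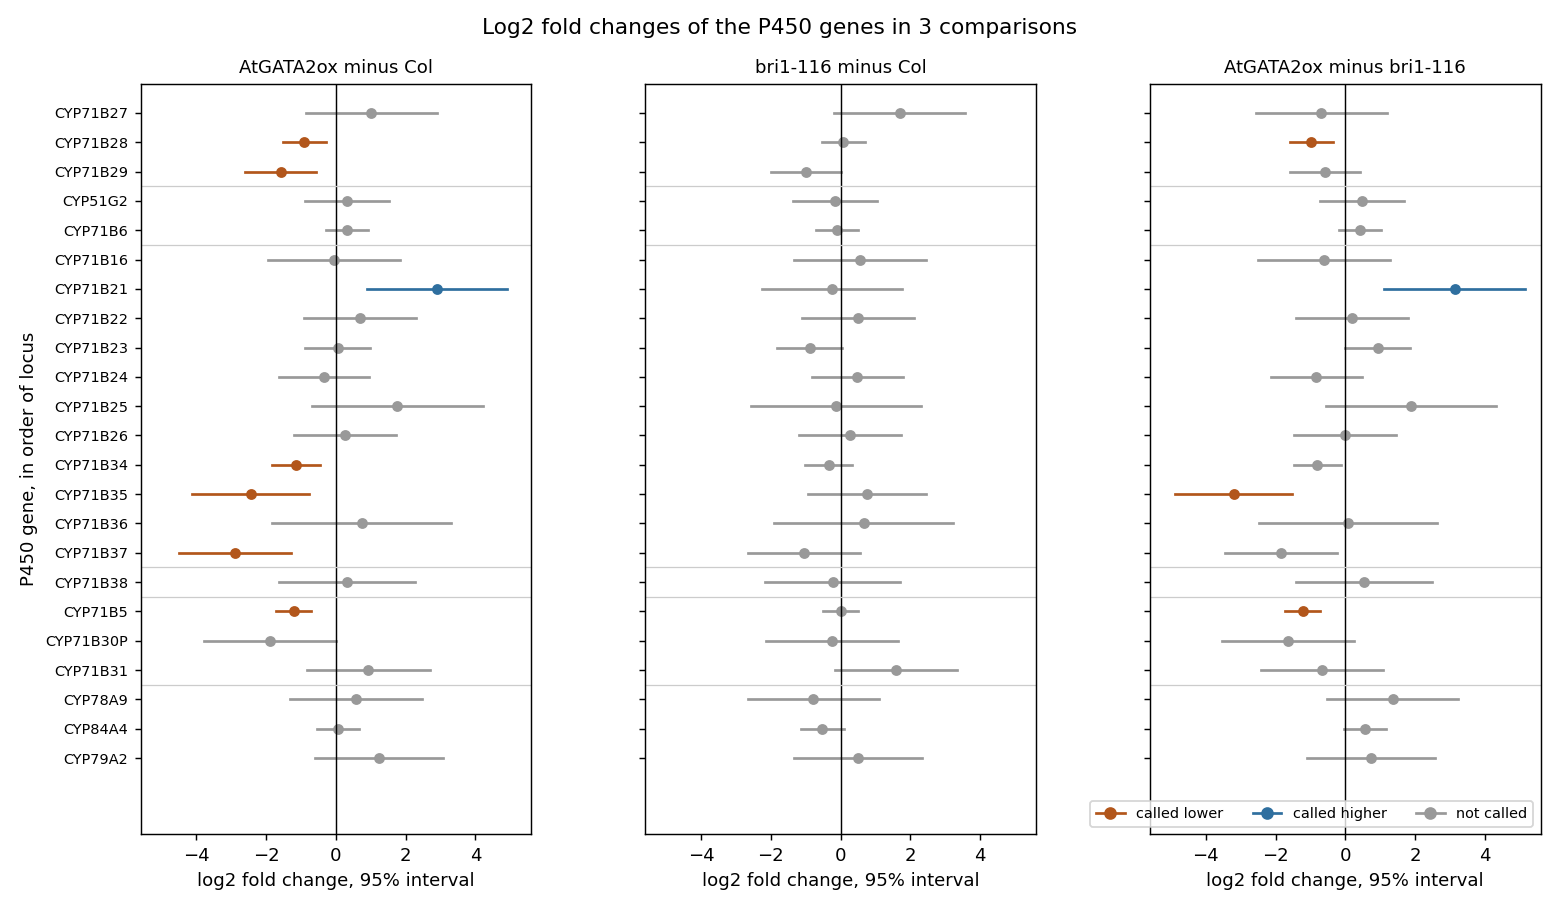
Log2 fold changes of the 23 P450 genes with 95% intervals from the limma fit, in order of locus, for AtGATA2ox minus Col, bri1-116 minus Col and AtGATA2ox minus bri1-116; grey lines separate the runs of neighbouring genes. In AtGATA2ox minus Col 6 genes were called lower and 1 higher, in bri1-116 minus Col none, and in AtGATA2ox minus bri1-116 3 lower and 1 higher.

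The comparison of bri1-116 with Col asked which P450 transcripts depend on BRI1, and it gave no call among the 23 genes. Over all probe sets 15.1% were called, 8% lower and 7.09% higher, and by limma no P450 gene had an unadjusted p under 0.05 either. Leaving out AtGATA2ox replicate 1 gave 1 call, CYP71B29 at -0.99 (adjusted p = 0.0252), and scaling on the hybridisation controls gave 1, CYP84A4 at -0.99 (adjusted p = 0.0479). The 3 arrays of each genotype did not overlap for 4 genes (17.4%, against 37.6% of all probe sets): CYP71B29 and CYP71B37 were below Col, and CYP71B27 and CYP71B31 above. CYP71B27 read 75.3, 102.9 and 7.8 in AtGATA2ox, 52.8, 66.7 and 79 in bri1-116, and 30, 9.8 and 24.4 in Col, with AtGATA2ox replicate 3 lowest of the 9 arrays. Its value in bri1-116 against Col was 1.70 ± 0.87 (adjusted p = 0.25). CYP71B27 rose in AtGATA2ox against Col without that array (2.12, adjusted p = 0.032).

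How large a change could have gone unseen differs between the genes. The 95% intervals of CYP71B5 (-0.50 to 0.50 on the log2 scale), CYP71B6 (-0.70 to 0.50) and CYP71B28 (-0.54 to 0.69) leave room for changes of under 2-fold in bri1-116. CYP84A4 (-1.12 to 0.09), CYP71B34 (-1.01 to 0.34), CYP71B23 (-1.82 to 0.05) and CYP71B29 (-2.00 to 0.01) leave room for larger falls. For the 16 dimmer genes the interval reached 1.21 to 2.56 to either side of the estimate, against 0.50 to 1.01 for these 7 genes. CYP71B23 read 129.8, 201.6 and 263.6 in AtGATA2ox, 92.9, 120.4 and 87.2 in bri1-116, and 96.8, 343.8 and 187 in Col. The bri1-116 arrays lay below those of AtGATA2ox and overlapped the widely spread Col arrays, and neither the value against Col (-0.89 ± 0.43, adjusted p = 0.22) nor that of AtGATA2ox against bri1-116 (0.93 ± 0.43, adjusted p = 0.14) passed.

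AtGATA2ox was also set against bri1-116, which tests whether the effects of the genotypes differ, since both are read against the same Col arrays. CYP71B5, CYP71B28 and CYP71B35 were lower in AtGATA2ox than in bri1-116 and CYP71B21 was higher, 4 of 23 (17.4%) against 26.8% of all probe sets (17.2% lower and 9.55% higher). For CYP71B29, CYP71B34 and CYP71B37, called lower than Col in AtGATA2ox alone, the difference between the genotypes did not pass (adjusted p = 0.41, 0.076 and 0.087). With bri1-116 replicate 3 as the only bri1-116 array none of the 23 genes was called, at -0.99 for CYP71B5 and -3.27 for CYP71B35 (adjusted p = 0.118 and 0.106). CYP71B28 also lost this call without bri1-116 replicate 1, 2 or 3 (adjusted p = 0.054, 0.0758 and 0.0537), with quantile normalisation (-0.74, adjusted p = 0.0673) and with centring on the median (-0.77, adjusted p = 0.057), and CYP71B21 without AtGATA2ox replicate 1, bri1-116 replicate 1 or bri1-116 replicate 2 (0.0864, 0.0696 and 0.0737). Without AtGATA2ox replicate 1 the difference passed for CYP71B34 (-1.02, adjusted p = 0.0315) and CYP71B37 (-2.72, adjusted p = 0.00571). Scaled on the hybridisation controls it passed for both (-1.38, adjusted p = 0.00488, and -2.42, adjusted p = 0.0155), and for CYP71B34 also with the dimmest 40% left out (-0.81, adjusted p = 0.0422).

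Directions in AtGATA2ox are relative to the scaling between arrays. Over all probe sets the median AtGATA2ox minus Col value, -0.17 as deposited, became 0.01 with quantile normalisation and 0.17 with centring on the median. Scaled on the hybridisation controls, which are control RNAs added for the hybridisation, it became -1.22. What that shift means for the amount of RNA in the seedlings was not tested. The numbers called higher and lower were 2211 and 4275 as deposited, 421 and 12046 scaled on these controls, 3465 and 2501 when centred, and 2685 and 2998 after quantile normalisation. The controls' mean log2 intensity was 10.9 to 11.3 in AtGATA2ox, 10.4 to 10.7 in bri1-116 and 10 to 10.2 in Col. The 6 falls of the main comparison kept their direction under these 3 scalings, as did the rise of CYP71B21 (1.85 to 3.24). Centring and scaling on the controls move every gene by the same amount, as from -0.90 to -0.56 and -1.95 for CYP71B28. Neither amount could have turned the 6 falls or this rise, so only quantile normalisation tested their direction. CYP71B5 and CYP71B37 were called under all 4 scalings.

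**Figure D3:**
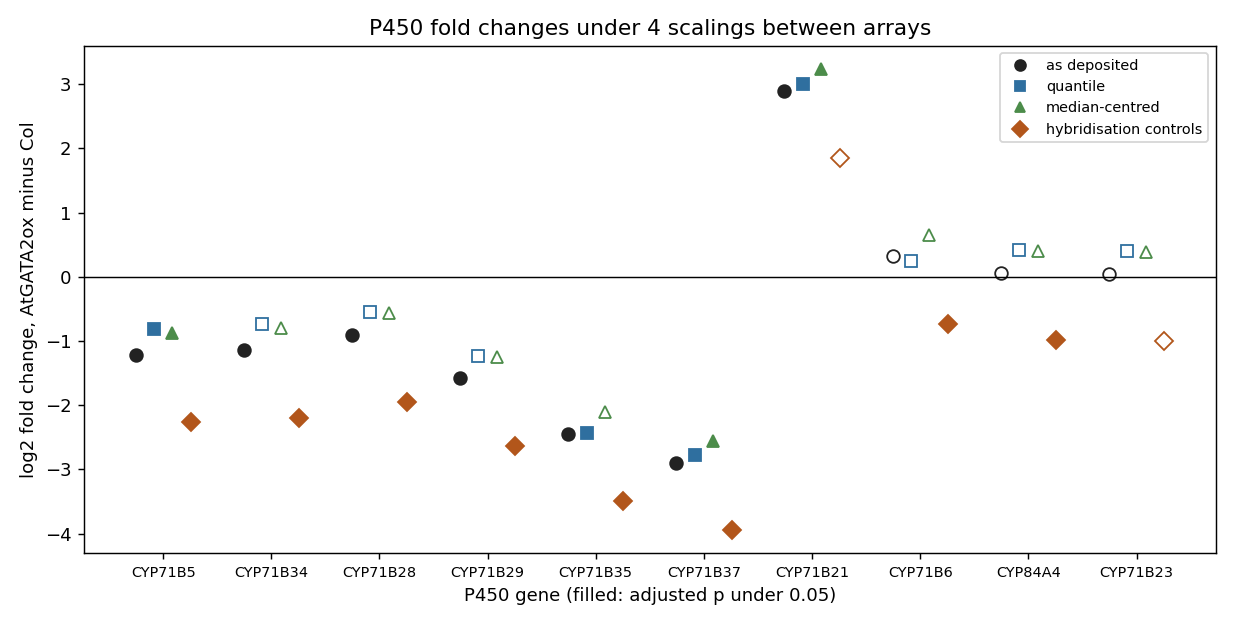
Log2 fold change of AtGATA2ox minus Col for 10 P450 genes with the deposited values, quantile normalisation, centring on the median and scaling to the hybridisation controls; filled symbols have an adjusted p under 0.05. The 6 genes that fell lie below 0 and CYP71B21 above 0 under all 4, while CYP71B6, CYP84A4 and CYP71B23 are above 0 under 3 and below it with scaling to the hybridisation controls. Centring and scaling to the hybridisation controls shift all genes by the same amount.

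Partner genes of P450 pathways could be followed only in part, and their values are given with the deposited scaling alone. Whether their calls hold under the other scalings or with an array left out is not given here. Of 20 listed phenylpropanoid genes 3 had a named probe set. HCT, which makes the ester that a P450 of lignin synthesis hydroxylates, read 2759.2, 1927 and 2840.2 in AtGATA2ox, 4510.5, 4064 and 4249.5 in bri1-116, and 3700.7, 3797.2 and 3930.3 in Col, with AtGATA2ox lowest (-0.62 ± 0.16 against Col, adjusted p = 0.0097). The other 2 measured, DFR and CCR2, were not called against Col in either genotype, and CCR2 was higher in AtGATA2ox than in bri1-116 (2.85 ± 0.94, adjusted p = 0.038). Of 21 glucosinolate and camalexin genes 2 were measured. UGT74B1, the glucosyltransferase that acts after the P450 steps of glucosinolate synthesis, read 286.5, 282.3 and 133.7 in AtGATA2ox, 344.3, 320.7 and 257.8 in bri1-116, and 656.4, 849.3 and 661.5 in Col. All Col arrays were higher, and UGT74B1 fell in AtGATA2ox (-1.69 ± 0.28, adjusted p = 0.00051) and in bri1-116 (-1.23 ± 0.28, adjusted p = 0.0083). BCAT4, an aminotransferase of methionine chain elongation, rose in bri1-116 (182.6, 112 and 96.6 against 45.6, 37.3 and 32.7 in Col; 1.69 ± 0.49, adjusted p = 0.033). Of 27 listed brassinosteroid genes that are no P450 only the receptor homologue BRL1 was measured, and it was not called against Col in AtGATA2ox (-0.48 ± 0.56) or bri1-116 (-1.56 ± 0.56, adjusted p = 0.082). None of the 10 electron partners and none of the 22 listed partners in gibberellin, abscisic acid and jasmonate pathways had a named probe set.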

How the data were processed

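Transcripts were measured in 9 samples on Affymetrix arrays, 3 each of AtGATA2ox, bri1-116 and Col, grouped by their titles. Each deposited file gives 1 linear intensity per probe set. MAS5 and GCRMA stand in the notes, per the submitters' processing notes, with neither version nor role. Tested on the values, each array's mean intensity without the lowest and highest 2% was 500. No detection calls were used. A genome build is not given in the sources used here.

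Of 22810 probe sets 64 controls were left out and 22746 tested. The platform's annotation pairs 13513 with 1 gene, 503 with several and leaves the rest unnamed. RefSeq (TAIR10.1) matched 13436 of the 13513 and gave loci, gene order and gene type only.

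Intensities were used as log2(value + 1) without further normalisation in 1 limma fit (version 3.58.1, R 4.3.3; lmFit, eBayes with intensity trend, 6 residual degrees of freedom). The fit was first run on simulated data with changes planted only in probe sets above the median intensity, so recovery in dimmer ones was not tested. Fold changes are on the log2(value + 1) scale, with SE. The threshold for a call was an adjusted p under 0.05 (Benjamini-Hochberg over all 22746). Precision is limited by 3 arrays per genotype.

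The members and lists were chosen with earlier results of these data known. The rule for named genes lets every P450 gene be named, gives array values for called, non-overlapping members with a genotype mean of at least 124.5, and allows up to 4 genes from each partner list. Array values of other members were added after they were seen.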

Additional observations from a re-analysis of the deposited data

Results flagged for a closer look

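The probe set that CYP71B19 and CYP71B20 share is named for both genes and so is no member of the set. With the deposited values it gave a signal above wild type in AtGATA2ox. It read 648.2, 1024.7 and 1152.2 in AtGATA2ox, 354.7, 316.5 and 395 in bri1-116, and 597.6, 520.7 and 484.7 in Col. The 3 genotypes did not overlap. The log2 fold change was 0.78 ± 0.21 for AtGATA2ox minus Col (limma, adjusted p = 0.015), 1.37 ± 0.21 for AtGATA2ox minus bri1-116 (adjusted p = 0.00038) and -0.59 ± 0.21 for bri1-116 minus Col (adjusted p = 0.089). Scaling on the hybridisation controls moves every AtGATA2ox minus Col value by 1 shared amount, as from -0.90 to -1.95 for CYP71B28. That shift is larger than 0.78, so the direction of this probe set against Col depends on the scaling. The 2 genes lie directly before CYP71B21 in the long run on chromosome 3, and which of them the signal comes from was not tested.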

How the results depend on the processing

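AtGATA2ox minus Col had 6 lower and 1 higher P450 gene. Lower were 3 with quantile normalisation, 2 with centring on the median and 3 without bri1-116 arrays 1 and 2, an alternative chosen after seeing the data. Higher were 0 scaled on the hybridisation controls. Without the dimmest 40% of probe sets CYP71B21, the 1 gene called higher, was itself left out, so the 0 higher there does not test its call. Leaving out each replicate gave 3 to 6 lower (3 without Col replicate 1 or 2) and 0 to 2 higher. The median of 0.264 became -0.785 scaled on those controls and -0.903 without the dimmest 40%, which keeps 7 of the 23 genes, and ran from -0.148 (without AtGATA2ox replicate 3) to 0.264 with each replicate left out, at 0.060 without Col replicate 3. Scaled on the hybridisation controls CYP71B6 (-0.731) and CYP84A4 (-0.991) turned below 0 and were called lower, as was CYP71B30P (-2.93). bri1-116 minus Col, with 0 calls, had 1 lower scaled on the hybridisation controls and 0 to 1 when 1 replicate was left out. AtGATA2ox minus bri1-116 had 3 lower and 1 higher. Higher were 2 with quantile normalisation, and the 0 higher without the dimmest 40% again comes with CYP71B21 left out. Lower were 6 scaled on the hybridisation controls, and leaving out each replicate gave 2 to 5 lower and 0 to 1 higher. The median of -0.008 became -0.582 scaled on those controls and -0.588 without the dimmest 40%, and ran from -0.538 (without bri1-116 replicate 3) to 0.371 (without AtGATA2ox replicate 3). Fewer probe sets or arrays remain where some are left out. Centring and scaling on the hybridisation controls shift every gene of a comparison by 1 shared amount. The medians and directions move with that shift, as from 0.264 to 0.603 and -0.785 for AtGATA2ox minus Col. Why the scalings differ between the genotypes was not tested. As a replicate block the label numbers changed no P450 call (6 lower and 1 higher against Col). Deviations of same-numbered arrays correlated at r of -0.018 to 0.020, and those of differently numbered arrays at -0.037 to 0.031. These values do not show whether same-numbered samples were grown or run together. Averaging the probe sets of a gene was not run, as each gene has 1. Low levels limit the 16 of the 23 genes whose mean was under 124.5 in every genotype, and for 11 of these no genotype mean passed 61.8.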
